A study of Homo sapiens with 12 samples.

Results

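The 31 genes described here encode enzymes of cholesterol synthesis and fatty acid synthesis, together with proteins that move sterols and regulate the pathway. They were taken by gene symbol from a set list, out of 51141 symbols in the count table, by a rule that names genes and uses no value. The list itself was drawn up with earlier results of these data known. The list holds 19 enzymes of sterol synthesis, 2 genes of sterol uptake and transport, 5 regulators and 5 genes of fatty acid synthesis. All 31 passed the filter on low counts, so none was dropped. The lowest count of any member in any library was 31, for TM7SF2 and ELOVL6.

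Messenger RNA was measured by RNA-seq in EA.hy926, an established human hybrid line in which endothelium of the umbilical vein was fused with A549 lung carcinoma cells. It is a single line with some epithelial character, so it stands for 1 cell background. There were 12 libraries in 4 groups of 3. In the hypoxia group, cells without chelator spent 8 h in 1% oxygen. In the TEPA group, 50 µM TEPA, a chelator of copper, was present for 16 h before another 8 h at normal oxygen. The TEPA+hypoxia group had the same TEPA exposure with the last 8 h in 1% oxygen. Control cells had neither. All groups were grown in medium with fetal bovine serum, which supplies lipoprotein cholesterol. The title of the series names copper and the transcription activity of HIF-1, the hypoxia-inducible factor, as its subject.

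Cells make cholesterol from acetyl-CoA through mevalonate, isoprenoid pyrophosphates, squalene and lanosterol. When sterols in the endoplasmic reticulum are low, SCAP escorts the membrane-bound SREBP transcription factors to the Golgi, where they are cut and released to switch on the genes of synthesis and uptake. When sterols are high, the INSIG proteins hold SCAP back. SREBP-2, from SREBF2, acts mostly on cholesterol genes and SREBP-1, from SREBF1, mostly on fatty acid genes. Several late steps of sterol synthesis use molecular oxygen, among them those of SQLE, CYP51A1, MSMO1 and SC5D.

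SREBPs bind sterol regulatory elements, often beside sites for the factors NF-Y and Sp1, so the promoters of the members were searched for short motifs. RefSeq windows (GRCh38.p14, from 250 bases before to 50 bases after the gene start) were matched by symbol for 27 of 31 members. ACAT2, FDFT1, SQLE and FASN were not matched. The NF-Y box CCAAT, sought on both strands, was found in 17 of 27 member windows (63%) and in 34.6% of all 35116 RefSeq windows. Among sterol enzymes 12 of 16 windows held it, against 2 of 4 for fatty acid genes and 2 of 5 for the regulators. The Sp1 box GGGCGG was found in 25 of 27 member windows (92.6%) and in 45% of all windows. The sterol element core TCACNCCAC was in 1 of 27 (SREBF2, first base at position -133 from the start) and in 1.13% of all windows. The E-box CACGTG, a palindrome, was in 4 of 27 (LSS, SC5D, INSIG1 and SCAP, 14.8%) and in 7.26% of all windows. The shares over all windows count every RefSeq entry, expressed in these cells or not, while each member was counted once. The sets are therefore unlike. Matches of different motifs may share bases, and a match describes letters only.

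The windows below are shown for 3 sterol enzymes called lower with TEPA and hypoxia once hypoxia 2 and 3 were left out, and for SREBF2, the member with the sterol element core. Each is written 5′ to 3′ on the strand of the gene. Capitals mark CCAAT or its complement ATTGG and, in SREBF2, TCACNCCAC. The windows lie at chr5:43313363-43313662 on the minus strand (HMGCS1), chr16:88663042-88663341 on the minus strand (MVD), chr21:46228725-46229024 on the minus strand (LSS) and chr22:41832855-41833154 on the plus strand (SREBF2).
HMGCS1: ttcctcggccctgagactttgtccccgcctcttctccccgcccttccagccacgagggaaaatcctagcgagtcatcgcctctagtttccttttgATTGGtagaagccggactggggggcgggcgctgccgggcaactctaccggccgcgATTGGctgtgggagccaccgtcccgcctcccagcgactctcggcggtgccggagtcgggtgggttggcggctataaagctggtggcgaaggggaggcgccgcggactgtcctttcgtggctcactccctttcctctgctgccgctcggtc
MVD: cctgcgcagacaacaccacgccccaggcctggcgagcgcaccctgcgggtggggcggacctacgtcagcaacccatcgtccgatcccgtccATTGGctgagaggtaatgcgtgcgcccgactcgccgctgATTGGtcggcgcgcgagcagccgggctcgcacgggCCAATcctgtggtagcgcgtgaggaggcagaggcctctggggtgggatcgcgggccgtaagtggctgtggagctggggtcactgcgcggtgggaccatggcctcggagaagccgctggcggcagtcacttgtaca
LSS: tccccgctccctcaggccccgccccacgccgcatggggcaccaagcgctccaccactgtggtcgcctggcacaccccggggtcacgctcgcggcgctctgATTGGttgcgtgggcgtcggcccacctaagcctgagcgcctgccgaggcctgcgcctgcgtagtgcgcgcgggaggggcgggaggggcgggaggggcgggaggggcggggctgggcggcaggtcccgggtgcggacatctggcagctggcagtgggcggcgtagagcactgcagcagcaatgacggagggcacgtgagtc
SREBF2: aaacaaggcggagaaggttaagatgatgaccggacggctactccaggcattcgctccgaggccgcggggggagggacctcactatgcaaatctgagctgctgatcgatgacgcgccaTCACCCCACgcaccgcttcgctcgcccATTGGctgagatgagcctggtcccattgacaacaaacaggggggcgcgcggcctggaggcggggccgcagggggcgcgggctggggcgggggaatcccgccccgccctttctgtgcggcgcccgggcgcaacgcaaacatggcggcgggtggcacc
HMGCS1 holds 2 NF-Y boxes, MVD holds 3, LSS holds 1 and SREBF2 holds 1 downstream of its sterol element core. CYP51A1, called lower in the same fit, has no match to CCAAT in its window.

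Libraries held 13406858 to 24778944 counts. Levels are CPM, counts scaled to a common library size, with TMM factors, which correct for differences in RNA composition. Hypoxia 2 and 3 stood apart from the other 10 libraries. Their TMM factors were 0.772 and 0.838, against 1.03 to 1.08 elsewhere, and the share of counts in genes of ribosomal proteins was 8.94% and 7.72%, against 2.84% to 4.55% in the other libraries. The main calls that use the hypoxia group, or a spread estimated with it, are therefore given with and without these libraries. The endothelial label was met by PECAM1 (430 to 674 CPM) and CDH5 (274 to 772 CPM) in all libraries, while CLDN5 was listed at 0. In hypoxia against control 4 of the 12 tested endothelial markers were called higher and 6 lower, against 29.4% and 27.8% of all genes. TEK had 32.6, 2.28 and 3.65 CPM in hypoxia, against 54.9, 61.7 and 45.3 CPM in control libraries, and ENG had 1235, 3387 and 2773 CPM in hypoxia, against 945, 827 and 1115 CPM in control libraries. The part of these markers in the results was not tested. Summed over 13 endothelial markers, of which 12 were tested, the level was 3920 to 6803 CPM in hypoxia, 3841 to 3933 CPM in TEPA, 3541 to 3656 CPM in TEPA+hypoxia and 3430 to 4079 CPM in control libraries. ENG and EGFL7 (623, 1713 and 1438 CPM in hypoxia, 437, 369 and 568 CPM in control libraries) carry the higher sum in hypoxia 2 and 3. PECAM1 and CDH5 lay below the controls there. Keratins 7, 8 and 18 were also high and carry the sum over 11 epithelial markers, of which 4 were tested. That sum was 7684 to 18169 CPM in hypoxia, 6898 to 7411 CPM in TEPA, 5719 to 6591 CPM in TEPA+hypoxia and 5436 to 7153 CPM in control libraries. CDH1 and ESRP1 were at 0, and EPCAM, KRT19, CLDN4, CLDN7, ELF3 and SFN had at most 0.989 CPM in any library. Of the other marker lists, 2 of 8 leukocyte and 4 of 10 fibroblast and mural genes had enough counts to be tested, and PTPRC and DCN were at 0 in all libraries. CD68, of the leukocyte list, had 145 to 200 CPM, and RGS5, of the fibroblast and mural list, had 34.4 to 96.1 CPM.

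Per kb of the longest annotated transcript, ACLY (71.1 CPM per kb), FDFT1 (52.6 CPM per kb) and FASN (43.1 CPM per kb) had the highest levels in control cells, and ELOVL6 (0.822 CPM per kb), TM7SF2 (1.45 CPM per kb) and SREBF1 (2.36 CPM per kb) the lowest. The order differed in the hypoxia group, where EBP had 50.1 and PMVK 48.5 CPM per kb, against 20.7 and 17.8 CPM per kb in control cells. TM7SF2 and LBR encode reductases for the same sterol step, and LBR was present at 19.9 CPM per kb in control cells.

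**Figure D1:**
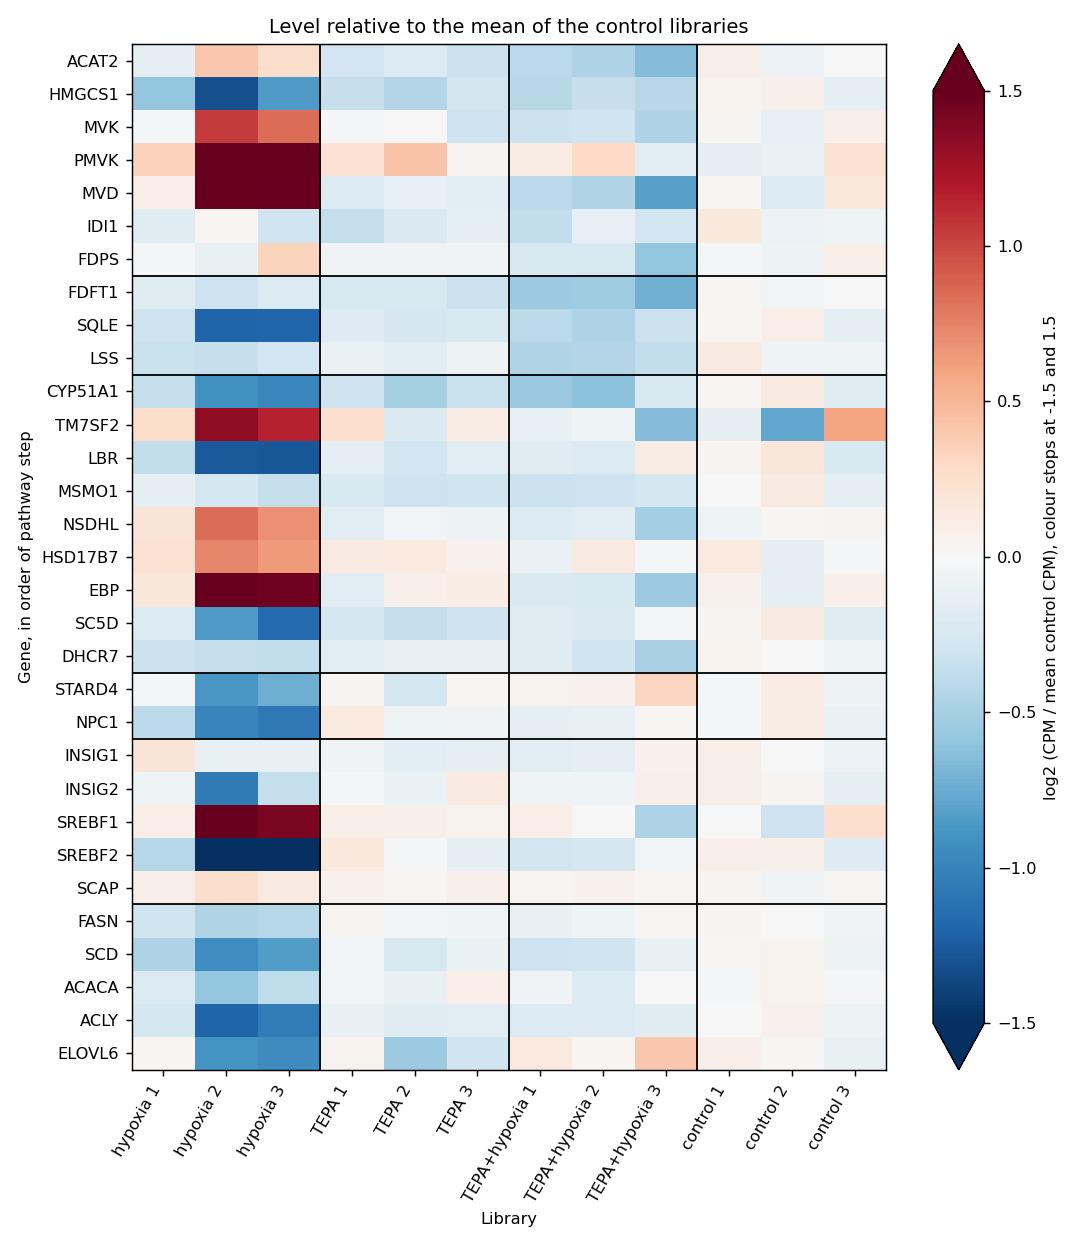
Level of each of the 31 members (rows, grouped by pathway step) in each library (columns), as log2 of CPM over the mean of the control libraries. The sterol enzymes in the upper rows are mostly pale to mid blue in TEPA and TEPA+hypoxia, with PMVK, HSD17B7 and single libraries of other genes as exceptions, and hypoxia 2 and 3 differ in both directions from hypoxia 1.

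With TEPA and hypoxia together, 1 of the 31 members passed the test against control. FDFT1, the enzyme that commits isoprenoids to sterols by making squalene, fell to a fold of 0.659. FASN, the fatty acid synthase gene, had a fold of 0.964 and did not pass. For 14 of 19 sterol enzymes every TEPA+hypoxia library lay below every control library, as it did for 15.6% of all genes tested. In the fit of all 12 libraries, 1 of 31 members was called lower and 0 higher, at a Benjamini-Hochberg adjusted p under 0.05 in edgeR's quasi-likelihood test. Across all 14447 genes tested, 0.118% were lower and 0.145% higher. No member had an unadjusted p under 0.05 in the higher direction in edgeR. DESeq2 and limma-voom called 0 higher, and DESeq2 called 4 lower (ACAT2, FDFT1, LSS and DHCR7). Over all genes and both directions, DESeq2 called 303, limma-voom 37 and edgeR 38. Without hypoxia 2 and 3, whose spread enters the shared error, 7 members were called lower and 0 higher, against 2.27% lower and 2.75% higher among 15195 genes tested. In these bulk libraries, fewer cells of a type and less RNA per cell cannot be told apart.

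FDFT1 had 95.8, 96.4 and 84.7 CPM in TEPA+hypoxia libraries, against 143, 136 and 141 CPM in control libraries. TEPA alone gave 119, 119 and 112 CPM and hypoxia alone 123, 113 and 121 CPM. All 3 libraries of TEPA+hypoxia lay below all 9 others, and those of TEPA and of hypoxia lay below the controls and overlapped each other. The log2 fold change against control was -0.60 ± 0.09 (SE, n = 3 each, edgeR adjusted p = 0.0145), and -0.59 ± 0.07 without hypoxia 2 and 3 (edgeR adjusted p = 7.68e-04). The direction stayed the same whichever library was left out, but the edgeR adjusted p rose above 0.05 without any 1 of the control or TEPA+hypoxia libraries, to between 0.0689 (without control 2) and 0.115 (without control 1). FDFT1 lies at chr8:11795573-11839309 on the plus strand (GRCh38, GENCODE 29).

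Upstream of squalene, 0 of 7 genes of the mevalonate and isoprenoid steps were called in the fit of 12 libraries, and 6 had a negative estimate, against 49.9% of all genes. ACAT2, which joins 2 acetyl-CoA at the entry to the pathway, had 28.6, 27.4 and 24.0 CPM in TEPA+hypoxia and 40.2, 35.7 and 37.6 CPM in control libraries. HMGCS1, which makes HMG-CoA, had 17.7, 18.6 and 17.7 CPM in TEPA+hypoxia and 24.6, 25 and 21.5 CPM in control libraries. MVD, which forms isopentenyl pyrophosphate, had 29.7, 28.6 and 22.2 CPM in TEPA+hypoxia and 39.8, 33.9 and 43.6 CPM in control libraries. For each of these 3 genes the groups did not overlap. In the fit of 12 libraries their log2 fold changes were -0.51 ± 0.14, -0.40 ± 0.16 and -0.54 ± 0.31 (SE, n = 3 each), and none passed (edgeR adjusted p = 0.197, 0.411 and 0.621). All 3 were called lower when hypoxia 2 and 3 were left out, with -0.50 ± 0.09 for ACAT2 (edgeR adjusted p = 0.0112), -0.39 ± 0.10 for HMGCS1 (0.0330) and -0.54 ± 0.12 for MVD (0.0253). MVK, IDI1 and FDPS, which phosphorylate mevalonate, isomerise isopentenyl pyrophosphate and make farnesyl pyrophosphate, also lay below all controls without being called, at log2 values of -0.36, -0.26 and -0.35. PMVK, which acts between MVK and MVD, differed from them in sign, at 0.10 ± 0.31.

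Neither of the steps from squalene to lanosterol passed in the fit of 12 libraries. SQLE, which adds oxygen to squalene, had 59.1, 56.8 and 62.5 CPM in TEPA+hypoxia and 80.2, 84.2 and 70.7 CPM in control libraries. LSS, which closes the rings to lanosterol, had 40.7, 41.0 and 42.8 CPM in TEPA+hypoxia and 60.8, 52.9 and 52.9 CPM in control libraries. Neither pair of groups overlapped. Their log2 fold changes were -0.40 ± 0.20 (edgeR adjusted p = 0.540) and -0.42 ± 0.09 (0.0955) over all 12 libraries. Both were called lower in the fit without hypoxia 2 and 3, SQLE at -0.39 ± 0.08 (edgeR adjusted p = 0.0151) and LSS at -0.41 ± 0.08 (0.0128).

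From lanosterol to cholesterol, 0 of 9 genes were called in the fit of 12 libraries. Of these genes 8 had a negative estimate, against 49.9% of all genes, and 5 lay below every control library, against 15.6% of all genes. CYP51A1, the lanosterol demethylase, had 45.7, 43.9 and 56.9 CPM in TEPA+hypoxia and 68.5, 74.0 and 59.4 CPM in control libraries, without overlap. Its log2 fold change was -0.46 ± 0.17 (edgeR adjusted p = 0.353), and -0.46 ± 0.10 without hypoxia 2 and 3, where it was called (edgeR adjusted p = 0.0266). MSMO1, a methyl sterol oxidase, had a log2 value of -0.30, NSDHL, which removes a carbon from the same sterols, -0.29, EBP, the sterol isomerase, -0.33, and DHCR7, which reduces 7-dehydrocholesterol, -0.32. These 4 did not overlap the controls and were not called in either fit. HSD17B7, LBR, SC5D and TM7SF2 overlapped the controls, at 0.01, -0.08, -0.14 and -0.25. CYP51A1 shares 79.4% of its exon bases with another annotated gene on the same strand, and ACAT2 33.9% with a gene on the opposite strand, so how counts were split there is uncertain. FDPS has 8 named pseudogenes, CYP51A1 3 and HSD17B7 2, with the same limit.

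Over the 19 sterol enzymes the median log2 change of TEPA+hypoxia against control was -0.33, with 17 negative, while over all genes tested the median was 0.00 and 49.9% were negative. The median was -0.32 without hypoxia 2 and 3, against 0.01 over all genes, of which 47.9% were negative. Among all 31 members, 16 (51.6%) had every TEPA+hypoxia library below every control library and 0 had every one above, against 15.6% and 13.0% of all genes tested. Of the 16, 14 were sterol enzymes. The 2 others, SCD and ACLY, belong to fatty acid synthesis.

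**Figure D2:**
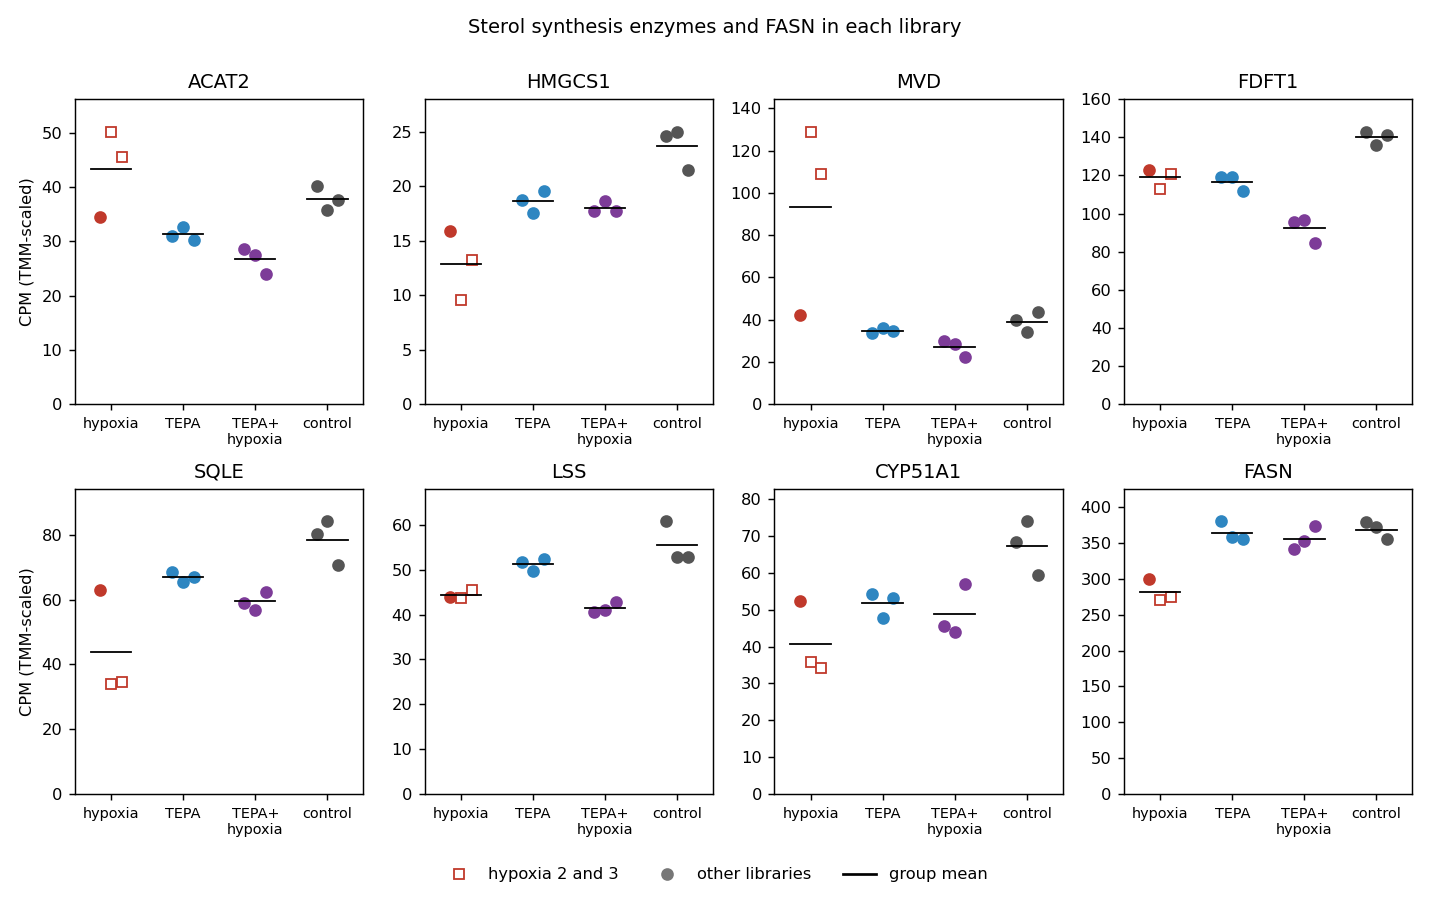
CPM (linear axis from 0) of 7 sterol enzymes and FASN in each library, by group, with the group mean as a line and hypoxia 2 and 3 as open squares. The 7 enzymes lie lower in TEPA+hypoxia than in control without overlap, as in FDFT1 with 84.7 to 96.4 CPM against 136 to 143 CPM, while FASN overlaps.

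No gene of sterol transport, regulation or fatty acid synthesis was called between TEPA+hypoxia and control, with or without hypoxia 2 and 3. Whether these groups differ from the sterol enzymes was not tested. NPC1, which exports cholesterol from lysosomes, and STARD4, a cytosolic sterol carrier, had log2 values of -0.08 and 0.15 and overlapped the controls. The 5 regulators also overlapped, from -0.18 in SREBF2 to 0.04 in SCAP. SREBF2 had 37.2, 37.7 and 43.8 CPM in TEPA+hypoxia, against 47.6, 47.9 and 39.4 CPM in control libraries. INSIG1, itself a target of SREBP, had 48.2, 48.7 and 56.4 CPM in TEPA+hypoxia, against 57.3, 53.6 and 50.9 CPM in control libraries. The overlap in both left no order between the groups. Of the fatty acid genes, FASN was at -0.05 ± 0.08, ACACA, whose product makes malonyl-CoA, at -0.09 ± 0.11, and ELOVL6, an elongase, at 0.20 ± 0.25. SCD, which makes monounsaturated fatty acids, had 118, 119 and 135 CPM in TEPA+hypoxia, against 148, 152 and 138 CPM in control libraries. ACLY, which supplies cytosolic acetyl-CoA to both pathways, had 268, 269 and 273 CPM in TEPA+hypoxia, against 308, 323 and 294 CPM in control libraries. Neither was called (log2 -0.24 ± 0.12 and -0.19 ± 0.19, edgeR adjusted p = 0.573 and 0.807), although neither pair of groups overlapped. In the fit that left out hypoxia 2 and 3 and also adjusted for the length and GC content of transcripts, 13 members were called lower. Added were MVK, FDPS, MSMO1, DHCR7, SCD and ACLY. The share of all genes called in that fit was not counted, so the count of members cannot be read against it.

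**Figure D3:**
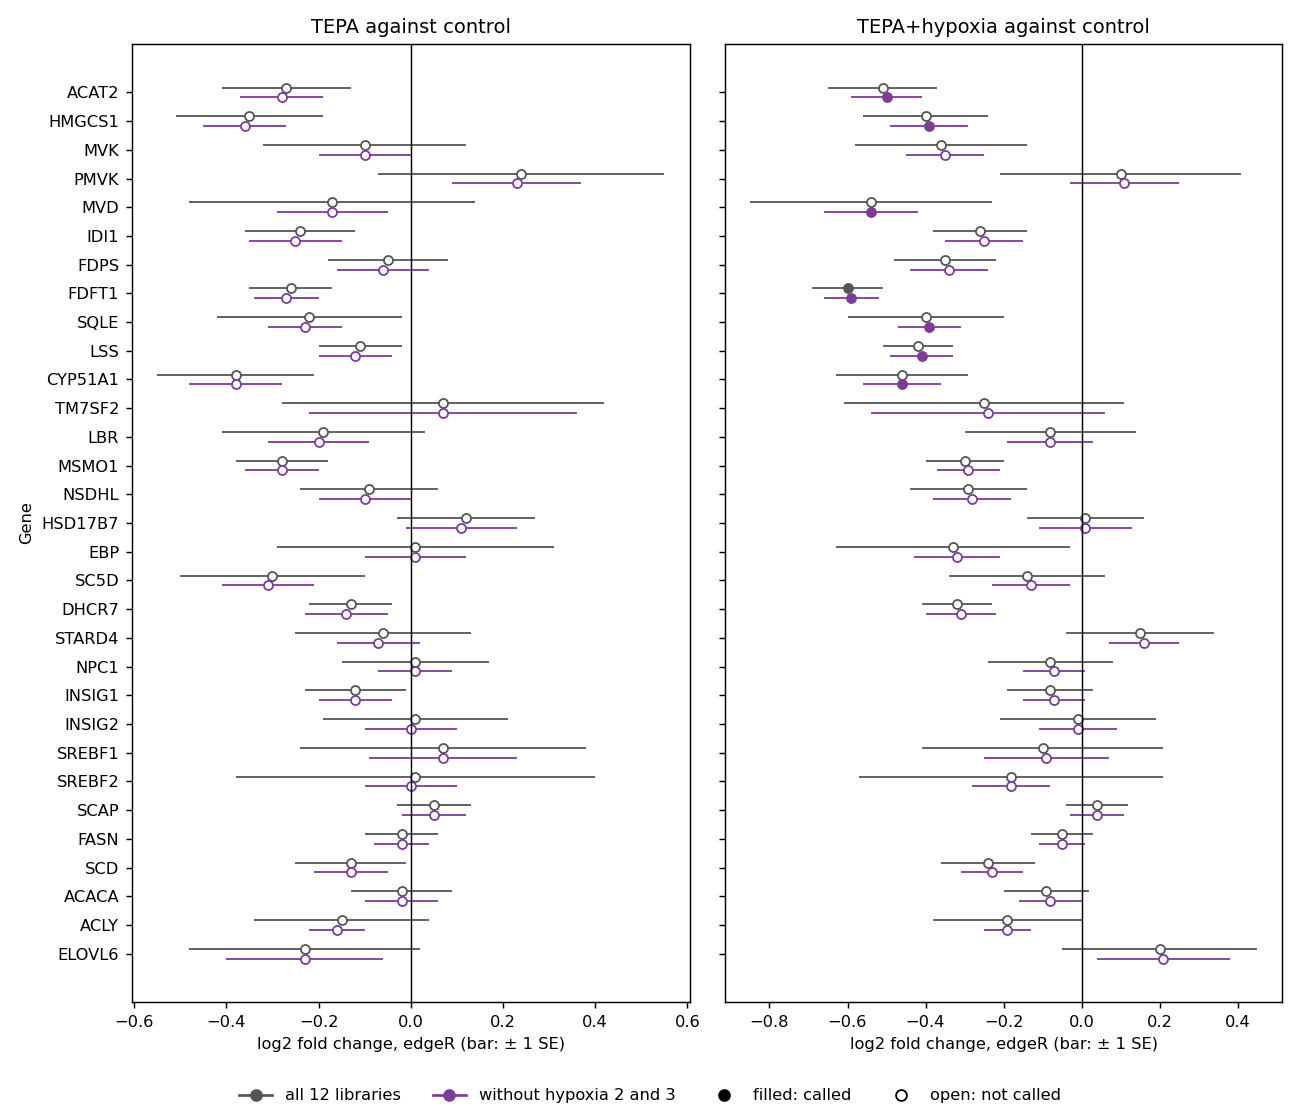
The log2 fold change of each member against control for TEPA (left) and TEPA+hypoxia (right), with bars of 1 SE, from all 12 libraries (grey) and without hypoxia 2 and 3 (purple). Filled points passed the test, 1 (FDFT1) in grey and 7 in purple, all of them with TEPA and hypoxia, and the estimates of the 2 fits lie close together while the bars are shorter in purple.

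TEPA at normal oxygen was compared with control to ask what the chelator does alone. Of the 31 members 22 had a lower estimate with TEPA, and none passed the test. FDFT1 had 119, 119 and 112 CPM in TEPA, against 143, 136 and 141 CPM in control libraries (log2 -0.26 ± 0.09, unadjusted p = 0.0109 and adjusted p = 1.00 in edgeR). CYP51A1 had 54.3, 47.7 and 53.3 CPM in TEPA, against 68.5, 74.0 and 59.4 CPM in control libraries (log2 -0.38 ± 0.17). HMGCS1 had 18.7, 17.5 and 19.6 CPM in TEPA, against 24.6, 25 and 21.5 CPM in control libraries (log2 -0.35 ± 0.16). In each of the 3 the TEPA libraries lay below the controls. MSMO1 (log2 -0.28 ± 0.10) was the fourth member with an unadjusted p under 0.05.

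The test called 0 members higher and 0 lower with TEPA, and 0% and 0% of all genes. At an unadjusted p under 0.05 there were 0 higher and 4 lower, and DESeq2 and limma-voom called 0 members in both directions. The counts were again 0 and 0 without hypoxia 2 and 3, with 0 higher and 9 lower at an unadjusted p under 0.05, while 0% of all genes were called higher and 0.0263% lower. The libraries of TEPA lay wholly below the controls for 11 members (35.5%) and wholly above for 0, against 6.92% and 6.64% of all genes tested. Those 11 were ACAT2, HMGCS1, IDI1, FDFT1, SQLE, LSS, CYP51A1, MSMO1, SC5D and DHCR7 of sterol synthesis and ACLY of fatty acid synthesis. The median log2 change over the 19 sterol enzymes was -0.17, against 0.00 over all genes, and over the 5 fatty acid genes it was -0.13. SREBF2, SREBF1, SCAP, INSIG2 and NPC1 were within 0.07 of 0 on the log2 scale. For SREBF2 the 95% interval of that difference ran from -0.84 to 0.85, and for SCAP from -0.13 to 0.23.

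TEPA+hypoxia against TEPA gives the response to low oxygen in chelated cells. It shares its libraries with the comparisons above, and those against control share the control libraries, so their values are given side by side only. FDFT1 (log2 -0.34 ± 0.09) and LSS (-0.31 ± 0.09) had the smallest p, with TEPA+hypoxia below TEPA in every library. LSS had 40.7, 41.0 and 42.8 CPM in TEPA+hypoxia, against 51.7, 49.8 and 52.5 CPM in TEPA libraries. Neither passed (edgeR adjusted p = 0.237 and 0.344). The next was FDPS at -0.30 ± 0.13. HMGCS1, CYP51A1 and MSMO1 were at -0.05, -0.09 and -0.02, and their groups overlapped.

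edgeR called 0 members higher and 0 lower in this comparison, against 0.0623% and 0.0346% of all genes. There were 0 higher and 3 lower at an unadjusted p under 0.05 in edgeR. limma-voom called 0 in both directions, and DESeq2 called 0 higher and 2 lower (FDFT1 and LSS). Over all genes and both directions, DESeq2 called 145, limma-voom 12 and edgeR 14. FDFT1 was called lower once hypoxia 2 and 3 were left out (log2 -0.33 ± 0.07, edgeR adjusted p = 0.0418) and 0 members higher, against 0.842% and 1.32% of all genes. All TEPA+hypoxia libraries lay below all TEPA libraries for 9 members (29%), all of them sterol enzymes, against 18.0% of all genes. They lay above for SC5D and STARD4 (6.45%), against 12.5% of all genes. Of the members, 26 had a negative estimate, with a median of -0.11 against 0.00 over all genes.

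Across the libraries, the median over the 19 sterol enzymes of the log2 level relative to the control mean was -0.14, -0.11 and -0.20 in hypoxia, -0.16, -0.15 and -0.16 in TEPA, -0.31, -0.30 and -0.41 in TEPA+hypoxia and 0.04, -0.07 and -0.01 in control libraries. By this median TEPA+hypoxia libraries were the lowest and controls the highest, with no overlap between those groups or with TEPA. The summed CPM of the same enzymes was 822, 1047 and 977 in hypoxia, 810, 810 and 805 in TEPA, 725, 727 and 696 in TEPA+hypoxia and 940, 916 and 890 in control libraries. By the sum hypoxia 2 and 3 were above the controls, and TEPA+hypoxia was again the lowest. The summed CPM of the 5 fatty acid genes was 722, 524 and 555 in hypoxia, 872, 815 and 835 in TEPA, 791, 798 and 848 in TEPA+hypoxia and 901, 917 and 851 in control libraries. Here hypoxia libraries were the lowest, and TEPA overlapped both TEPA+hypoxia and control.

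Hypoxia against control gives the effect of low oxygen where no chelator was added. Of the 5 fatty acid genes FASN, SCD, ACACA and ACLY fell. Of the sterol enzymes 8 fell and 7 rose, and SREBF2 fell while SREBF1 rose. These calls depend on hypoxia 2 and 3. Without them no member passed, and 22 of the 23 called members kept their sign. Members called numbered 8 higher and 15 lower, against 29.4% and 27.8% of all genes tested. Leaving out hypoxia 2 and 3 gave counts of 0 and 0, with 0 higher and 11 lower at an unadjusted p under 0.05, against 0.283% and 0.230% of all genes called. With only the 6 libraries compared the counts were also 0 and 0. The share of all genes called in that fit is not given here, so these counts are no result about the members.

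FASN had 300, 270 and 275 CPM in hypoxia, against 379, 372 and 355 CPM in control libraries. SCD had 106, 76.7 and 81.8 CPM in hypoxia, against 148, 152 and 138 CPM in control libraries. ACLY had 258, 134 and 149 CPM in hypoxia, against 308, 323 and 294 CPM in control libraries. All 3 hypoxia libraries lay below all controls for these genes, hypoxia 1 nearest to them. The log2 fold changes were -0.39 ± 0.08, -0.73 ± 0.13 and -0.78 ± 0.19 (SE, n = 3 each, edgeR adjusted p = 0.00601, 0.00601 and 0.00799). Hypoxia 1 alone gave -0.30 ± 0.09, -0.46 ± 0.11 and -0.26 ± 0.09 against the controls, none passing (edgeR adjusted p = 0.0973, 0.0681 and 0.124). In that fit the lone hypoxia library is assumed to vary like the libraries of the other groups. ACACA was at -0.38 ± 0.11 and -0.21 ± 0.12 in these fits, and its sign turned with the GC correction (0.18). ELOVL6 was not called.

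Sterol enzymes split by direction. HMGCS1 had 15.9, 9.54 and 13.2 CPM in hypoxia, against 24.6, 25 and 21.5 CPM in control libraries. SQLE had 63.0, 34.1 and 34.5 CPM in hypoxia, against 80.2, 84.2 and 70.7 CPM in control libraries. Both lay below the controls in all 3 hypoxia libraries. Their log2 fold changes were -0.88 ± 0.16 and -0.84 ± 0.20 (edgeR adjusted p = 0.00601 and 0.00711), and -0.58 ± 0.14 and -0.32 ± 0.11 with hypoxia 1 alone (edgeR adjusted p = 0.0713 and 0.144). LSS (-0.32), DHCR7 (-0.35) and FDFT1 (-0.23) were called lower with similar levels in all 3 hypoxia libraries, LSS at 44.0, 43.7 and 45.4 CPM and DHCR7 at 61.3, 59.7 and 59.0 CPM. With hypoxia 1 alone these 3 were at -0.34, -0.32 and -0.19, not called. CYP51A1, LBR and SC5D were also called lower, at -0.72, -0.90 and -0.68, and had -0.36, -0.37 and -0.21 with hypoxia 1 alone, not called.

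The rises came with hypoxia 2 and 3. MVD had 42.0, 129 and 109 CPM in hypoxia, against 39.8, 33.9 and 43.6 CPM in control libraries. EBP had 41.4, 125 and 101 CPM in hypoxia, against 38.3, 33.4 and 38.6 CPM in control libraries. PMVK had 29, 86.2 and 71.2 CPM in hypoxia, against 20.6, 21.3 and 26.5 CPM in control libraries. Hypoxia 1 lay within or close above the controls for these genes, and hypoxia 2 and 3 far above. The log2 fold changes were 1.25 ± 0.31, 1.27 ± 0.30 and 1.45 ± 0.31 (edgeR adjusted p = 0.00788, 0.00682 and 0.00609), against 0.10 ± 0.17, 0.17 ± 0.16 and 0.35 ± 0.19 with hypoxia 1 alone (0.748, 0.543 and 0.298). MVK (0.69), TM7SF2 (0.99), NSDHL (0.60), HSD17B7 (0.55) and SREBF1 (1.16) were the other calls in this direction. With hypoxia 1 alone they were at -0.03, 0.29, 0.19, 0.23 and 0.11, none called. When length and GC content were adjusted for, MVD (0.31, edgeR adjusted p = 0.105), PMVK (0.31, 0.0615), TM7SF2 (0.03) and NSDHL (0.19) were not called. EBP (0.60, edgeR adjusted p = 0.0234), MVK (0.44, 0.0463), HSD17B7 (0.88, 0.00797) and SREBF1 (0.80, 0.0194) were still called higher in that fit.

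The SREBP genes moved apart in the same way. SREBF2 had 33.4, 7.49 and 11.3 CPM in hypoxia, against 47.6, 47.9 and 39.4 CPM in control libraries (log2 -1.36 ± 0.40, edgeR adjusted p = 0.0149). SREBF1 had 11.8, 32.9 and 29.3 CPM in hypoxia, against 11, 8.84 and 13.1 CPM in control libraries (log2 1.16 ± 0.31, edgeR adjusted p = 0.0103). SREBF2 was below the controls in all 3 hypoxia libraries, while hypoxia 1 overlapped the controls in SREBF1. With hypoxia 1 alone the values were -0.43 ± 0.15 and 0.11 ± 0.23, neither passing (edgeR adjusted p = 0.137 and 0.811). NPC1 was called lower at -0.78 ± 0.16 (-0.39 with hypoxia 1 alone, not called), with 70.5, 46.6 and 43.9 CPM in hypoxia, against 90.8, 100 and 86.3 CPM in control libraries. STARD4 was called lower at -0.49, with hypoxia 1 inside the control range and -0.04 from it alone, and its sign turned with the GC correction (0.07). ACAT2, IDI1, FDPS, MSMO1, INSIG1, INSIG2 and SCAP were not called.

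**Figure D4:**
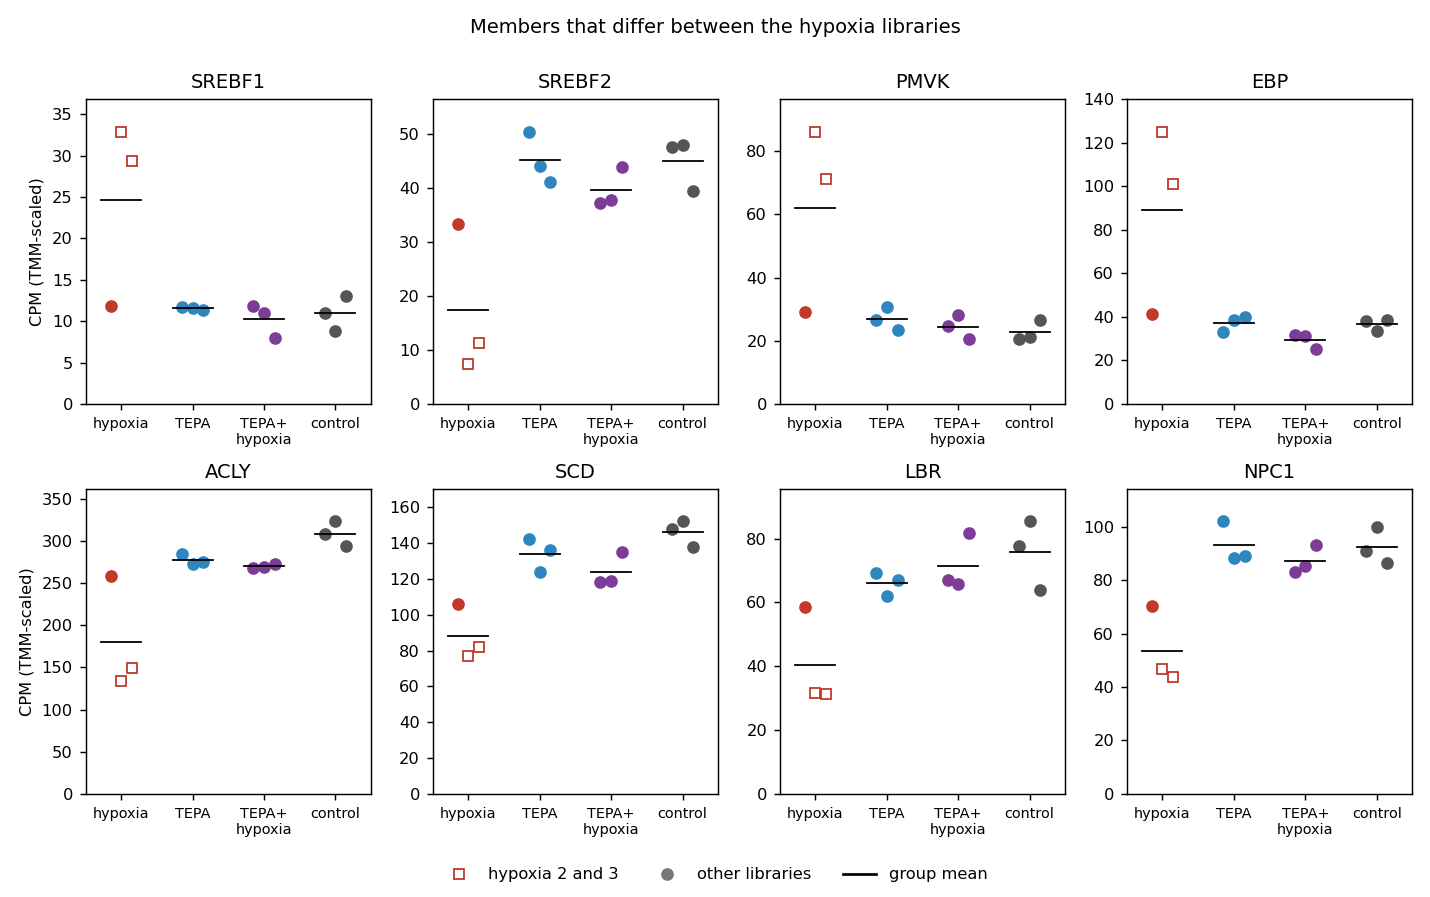
CPM (linear axis from 0) of 8 members in each library, by group, with the group mean as a line and hypoxia 2 and 3 as open squares. Hypoxia 2 and 3 lie farther from the controls than hypoxia 1 in all 8 genes, for example at 32.9 and 29.3 CPM for SREBF1, with hypoxia 1 at 11.8 CPM.

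Hypoxia 1 can be set against the controls gene by gene with no error of its own. It lay below all 3 controls for 17 members (54.8%) and above them for 6 (19.4%), against 35.6% and 35.7% of all genes tested. Those below included 11 of 19 sterol enzymes and 4 of 5 fatty acid genes. Those above were PMVK, NSDHL, HSD17B7, EBP, INSIG1 and SCAP.

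GC content moved with the response to hypoxia among the members. The 8 members called higher had a median GC content of 58.8% in their longest annotated transcript and a median length of 2223 bases, the 15 called lower 48.6% and 4339 bases. Across the 31 members, Spearman's rho between GC content and the log2 change of hypoxia against control was 0.507, and between length and that change -0.526. For TEPA+hypoxia against control the value for GC content was -0.146, and for TEPA against control 0.521. It was -0.634 for TEPA+hypoxia against TEPA, -0.536 for TEPA+hypoxia against hypoxia and -0.584 for the interaction. For length it was 0.346 for TEPA+hypoxia against control, 0.0552 for TEPA against control and 0.377 for TEPA+hypoxia against TEPA. The members share all libraries, so these are descriptions, and the part of GC content in the calls was not tested beyond the corrected fit. With hypoxia 2 and 3 left out, rho for hypoxia against control was 0.259 with GC content and -0.519 with length. With the correction 4 members were called higher and 14 lower in hypoxia against control, among them FDPS, which was not called without it (0.08, and -0.54 with it). The corrected fit called 3 members (FDFT1, LSS and SCD) lower in TEPA+hypoxia against control. The share of all genes called in the corrected fit was not counted, so these counts cannot be read as a result about the members.

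**Figure D5:**
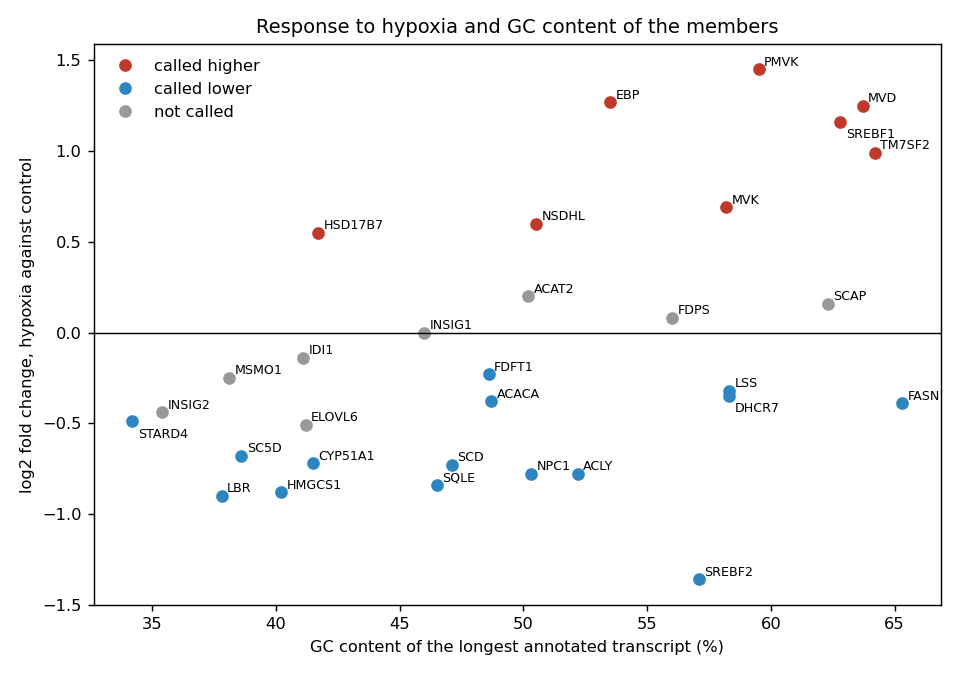
The log2 fold change of hypoxia against control (vertical) for each of the 31 members by the GC content of its longest annotated transcript (horizontal), coloured by call. Most members called higher lie at high GC content, with HSD17B7 at 41.7% as the lowest, and FASN at 65.3% and SREBF2 at 57.1% are called lower in spite of a high value.

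TEPA+hypoxia against hypoxia asks what chelation changes at low oxygen, and the interaction asks whether the response to hypoxia differed with TEPA. Both take the hypoxia libraries as their base. SREBF2 had 37.2, 37.7 and 43.8 CPM in TEPA+hypoxia, against 33.4, 7.49 and 11.3 CPM in hypoxia libraries. MVD had 29.7, 28.6 and 22.2 CPM in TEPA+hypoxia, against 42.0, 129 and 109 CPM in hypoxia libraries. NSDHL had 41.3, 42.5 and 33.4 CPM in TEPA+hypoxia, against 54.4, 85.3 and 76.6 CPM in hypoxia libraries. None of the 3 overlapped. Members called numbered 11 higher and 11 lower, against 30.9% and 30.6% of all genes. FASN, SCD, ACACA, ACLY, ELOVL6, NPC1, STARD4, SREBF2, HMGCS1, LBR and SC5D were called higher. After adjusting for length and GC content, ACACA was called lower (-0.38, edgeR adjusted p = 0.00803), and SCD (-0.01), ELOVL6 (-0.06), STARD4 (-0.01) and HMGCS1 (0.05) were not called. ACAT2, MVK, PMVK, MVD, FDPS, FDFT1, TM7SF2, NSDHL, HSD17B7, EBP and SREBF1 were called lower. With the correction FDPS (0.27), PMVK (-0.11) and TM7SF2 (-0.19) were not called. Called only with the correction were DHCR7 (0.61, edgeR adjusted p = 0.00450) and SCAP (0.21, 0.0383), higher, and IDI1 (-0.54, 0.0141), lower.

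With hypoxia 2 and 3 left out, 0 were called higher and 3 lower (MVD, FDFT1 and NSDHL), against 7.98% and 7.17% of all genes. These had log2 values of -0.64 ± 0.17, -0.40 ± 0.10 and -0.47 ± 0.14 (edgeR adjusted p = 0.0275, 0.0262 and 0.0373). In the higher direction 2 members had an unadjusted p under 0.05 in that fit. FDFT1 was lower in TEPA+hypoxia also with all libraries, with 95.8, 96.4 and 84.7 CPM in TEPA+hypoxia, against 123, 113 and 121 CPM in hypoxia libraries (log2 -0.37 ± 0.09, edgeR adjusted p = 0.00435).

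The interaction was called for 13 members, 6 positive and 7 negative, against 17.3% and 21.5% of all genes. It is the log2 change with hypoxia in TEPA-treated cells minus that in cells without TEPA. Among the 13 called members MVD had the lowest value, -1.63, and LBR the highest, 1.01, while SREBF2, which was not called, had 1.17. With hypoxia 2 and 3 left out the values were -0.46 for MVD, 0.50 for LBR and 0.25 for SREBF2. Both counts were 0 without hypoxia 2 and 3, against 0% and 0% of all genes, with 7 positive and 3 negative at an unadjusted p under 0.05. FDFT1 had an interaction of -0.11 ± 0.12 (95% interval -0.38 to 0.16) and was not called. For LSS it was 0.02 ± 0.13 (95% interval -0.26 to 0.30).

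Genes around the pathway were counted by list. In TEPA+hypoxia against control, 1 of 71 tested genes in 7 lists passed over all 12 libraries. Of all genes, 0.118% were called lower and 0.145% higher there. The 1 gene was TMEM97, the sigma-2 receptor, a sterol-responsive protein of the endoplasmic reticulum that binds NPC1. TMEM97 had 41.2, 42.5 and 39.1 CPM in TEPA+hypoxia, against 59.2, 59.1 and 61.1 CPM in control libraries, without overlap (log2 -0.55, edgeR adjusted p = 0.0190). It had 47.2, 49.3 and 47.0 CPM in TEPA and 52.6, 54.2 and 51.8 CPM in hypoxia libraries, between those of TEPA+hypoxia and control. Without hypoxia 2 and 3, TMEM97 (-0.54 ± 0.07), ME1 (-0.43 ± 0.07), FADS2 (-0.26 ± 0.07), HADHA (-0.22 ± 0.06) and PLIN3 (-0.28 ± 0.07) were called lower and ERLIN2 (0.57 ± 0.15) higher, with edgeR adjusted p from 0.00136 to 0.0494. In that fit 5 of 72 were lower and 1 higher, against 2.27% and 2.75% of all genes. ME1, which supplies NADPH, had 48.4, 47.2 and 47.0 CPM in TEPA+hypoxia, against 60.2, 68.2 and 64.6 CPM in control libraries. FADS2 desaturates polyunsaturated fatty acids, HADHA works in mitochondrial fatty acid oxidation, PLIN3 coats lipid droplets and ERLIN2 takes part in sterol-regulated protein degradation. In TEPA against control, edgeR called 0 genes of these lists, with 0 higher and 2 lower at an unadjusted p under 0.05. limma-voom called 0 and DESeq2 called 1 lower, where DESeq2 called 6 of all genes. In TEPA+hypoxia against TEPA, edgeR again called 0 over all 12 libraries, with 1 higher and 4 lower at an unadjusted p under 0.05. limma-voom called 0 and DESeq2 called 1 lower, where DESeq2 called 145 of all genes. With hypoxia 2 and 3 left out, edgeR called PLIN3 (-0.31) and PNPLA2 (-0.35), a lipase of lipid droplets, lower in TEPA+hypoxia than in TEPA. Of all genes, 0.842% were called lower and 1.32% higher in that comparison. In TEPA+hypoxia against hypoxia 31 of 71 were called higher and 23 lower, against 30.9% and 30.6% of all genes. With hypoxia 2 and 3 left out the counts were 11 and 6 of 72, against 7.98% and 7.17% of all genes.

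In hypoxia against control, edgeR called 0 of 72 of these genes without hypoxia 2 and 3 (4 higher and 15 lower at an unadjusted p under 0.05), and the following calls are from all 12 libraries, in which 29.4% of all genes were called higher and 27.8% lower. Shares of the lists near these are no result about them. Of 9 tested genes of SREBP processing and sterol-sensing degradation, 7 were lower and 0 higher, led by C12orf49 (also named SPRING1, a cofactor of SREBP cleavage, log2 -0.81), MBTPS2, a protease that cuts SREBPs (-2.13), and RNF139 (-0.65). Of 11 genes of cholesterol transport and storage, 4 were higher and 4 lower, with STARD3 at 0.84, NPC2, the lysosomal partner of NPC1, at 1.31 and NCEH1, a cholesteryl ester hydrolase, at -1.24. Of 6 LXR receptors and targets, 2 were higher, NR1H2 (0.80) and NR1H3 (1.45), and 2 lower, with ABCA1, the cholesterol exporter, at -1.62. ABCA1 was near the floor, with 154 counts over all 12 libraries. It had 0.323, 0.0734 and 0.267 CPM in hypoxia, against 0.828, 0.737 and 0.521 CPM in control libraries. In hypoxia 2, 3 counts correspond to 0.220 CPM. Of 19 further genes of fatty acid synthesis and desaturation 5 were higher and 9 lower, with FADS1 at -0.61, FADS3 at 0.89 and ACSL1 at -0.78. Of 10 genes of isoprenoid branches 1 was higher (RABGGTA, 0.62) and 4 lower, with NUS1 at -0.76 and PDSS2 at -0.49. Of 9 genes of fatty acid oxidation 1 was higher (ECI1, 1.25) and 3 lower, with CPT1A at -0.55. Of 7 genes of lipid droplets and triglyceride synthesis 4 were higher, with DGAT1 at 1.38 and AGPAT2 at 1.34, and 1 lower (GPAM, -1.0).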

How the data were processed

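RNA was sequenced in 12 libraries of EA.hy926 cells, 3 in each of 4 groups taken from the labels. The values used are whole-number read counts per gene symbol, as deposited by the authors with no normalization. Per the submitters' processing notes, HISAT2 2.1.0, DESeq and the build GRCh38 were used. Neither the counting tool nor its annotation and use of strand is given in the sources used here. Reads were not tied to molecular identifiers, so floors cover counting error only: 3 counts correspond to 0.118 to 0.267 CPM per library.

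Genes were filtered by edgeR 4.0.16 (filterByExpr by group, 14447 genes kept), scaled by TMM, and tested with the quasi-likelihood test in 1 fit of all 12 libraries with a mean per group (R 4.3.3). Calls needed an adjusted p (Benjamini-Hochberg, all genes tested) under 0.05. Folds are log2 with their SE. Alternatives were DESeq2 1.42.0, limma-voom 3.58.1, other scalings and filters, a replicate block, a spline correction (4 degrees of freedom) for GC content and length, only the groups compared, and libraries left out. Hypoxia 2 and 3 were set apart by values from these same counts, so leaving them out was not a choice blind to the data. Fits without hypoxia 2 and 3 combined with the correction or the block were chosen after seeing the data. The code was tested on simulated data. GC content, length and coordinates come from GENCODE 29, promoters from RefSeq.

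The 31 members and all lists were chosen with earlier results of these data known. All members are accounted for. Genes of the other lists are counted, and named where called outside hypoxia against control, or, there, up to 3 per list with the smallest adjusted p. For TEPA+hypoxia against hypoxia and the interaction they are not named, a departure from that rule. Of the listed pathway genes, VLDLR, GRAMD1B, ABCG1, ACACB, ELOVL7, LPIN1, MLXIPL, COQ2, RABGGTB, PPARA and PLIN2 had too few counts to be tested. The labels do not say that replicates came from separate cultures, so p-values measure only the spread between these libraries, which may be technical.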

Additional observations from a re-analysis of the deposited data

Results flagged for a closer look

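For 13 members the response to hypoxia with TEPA differed from that without TEPA by a test of the difference itself (edgeR interaction, adjusted p under 0.05, all 12 libraries). Of the 31 members 6 were positive and 7 negative, near the 17.3% and 21.5% of all genes tested. The difference of log2 changes was positive for HMGCS1 (0.83), LBR (1.01), SC5D (0.85), NPC1 (0.69), FASN (0.35) and SCD (0.62). It was negative for MVK (-0.95), PMVK (-1.59), MVD (-1.63), NSDHL (-0.79), HSD17B7 (-0.66), EBP (-1.61) and SREBF1 (-1.34). Without hypoxia 2 and 3 none of the 13 passed and all kept their sign, with 0.54 for HMGCS1, 0.28 for FASN, 0.36 for SCD, -0.46 for MVD and -0.27 for SREBF1.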

How the results depend on the processing

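TMM, RLE and upper quartile scaling gave close results, the median of all genes moving by at most 0.06 on the log2 scale. The counts that follow are of members, without the share of all genes called beside them. They show how the counts move with the setting and are no result about the members. For the corrected fits the share of all genes called was not counted. The counts of members in TEPA against control stayed at 0 in each setting run. For hypoxia against control, members called higher (8) numbered 4 with the GC content and length correction, 4 with that correction and the replicate block, 0 with only the groups compared and 5 to 9 with 1 library left out. Those called lower (15) numbered 0 with only the groups compared and 11 to 18 with 1 library left out. Without hypoxia 2 and 3 they numbered 0 higher and 0 lower, with the correction added 0 and 2, and with the replicate block added 0 and 0.
For TEPA+hypoxia against control, members called lower (1) numbered 0 without a filter, 4 by DESeq2, 0 with the replicate block, 3 with the correction, 3 with only the groups compared, 7 without hypoxia 2 and 3, 13 and 2 when the correction or the block was added to that, and 0 to 7 with 1 library left out. FDFT1 had an adjusted p of 0.0517 without a filter and 0.0706 with the block. For TEPA+hypoxia against TEPA, members called lower (0) numbered 2 by DESeq2, 1 without hypoxia 2 and 3, 1 with the correction added, and 0 to 1 with 1 library left out.
For TEPA+hypoxia against hypoxia, members called higher (11) numbered 7 with correction and block, 1 with only the groups compared and 4 to 14 with 1 library left out, and those called lower (11) 10 to 11. Without hypoxia 2 and 3 there were 0 higher and 3 lower, with the correction added 0 and 1, and with the block added 0 and 0. For the interaction, positive calls (6) numbered 10 by DESeq2, 12 by limma-voom, 0 with correction and block and 0 to 15 with 1 library left out. Negative calls (7) numbered 4 with the block, 2 with the correction, 0 with both and 0 to 9 with 1 library left out. Without hypoxia 2 and 3 there were 0 of either sign in all 3 fits.
Signs turned for some genes. In hypoxia against control, MVK was at -0.03 without hypoxia 2 and 3, -0.10 with the correction added and -0.09 with the block added, while MVD (-0.19), TM7SF2 (-0.02) and EBP (-0.04) turned without those libraries and with the correction. With the correction, then with the block added, then without hypoxia 2 and 3 and no block, STARD4 was at 0.07, 0.07 and 0.11 and ACACA at 0.18, 0.18 and 0.10, and FDPS was at -0.54 and -0.56 in the first pair. In TEPA+hypoxia against hypoxia the same fits gave FDPS 0.27 and 0.28, STARD4 -0.01, -0.01 and -0.04, SCD -0.01, -0.01 and 0.00, ACACA -0.38, -0.37 and -0.28 and ELOVL6 -0.06, -0.04 and -0.20. There SCAP was at 0.21 with the correction, and PMVK at 0.19 (interaction 0.00) without hypoxia 2 and 3 with the correction. The cause was not tested.
Same-numbered libraries of different groups had correlations of -0.360 to 0.319 in their deviations. These deviations were taken from the mean of each group's own libraries, and in hypoxia they carry the split of hypoxia 1 from 2 and 3. They cannot show whether the numbers pair libraries, which the labels do not say, so the replicate block is only a check. Among the members, depth limits TM7SF2 and ELOVL6 most, whose lowest count in a library was 31. Genes of the other lists include lower counts, as in ABCA1 with 1 and MBTPS2 with 4.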
